A study of Rattus norvegicus with 10 samples.

Results

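Immediate early transcription factors were examined in sub-epidermal muscle of rats in which immunization with collagen had produced arthritis resembling the rheumatoid form. The 10 genes chosen by name were Fos, Fosb, Jun, Junb, Egr1, Egr2, Ier2, Atf3, Btg2 and Nr4a1. Of these, 9 had a row under their symbol among the 16497 symbols in the expression table, each as 1 transcript. All 9 passed the filter on low values, as did 10259 of the 17221 transcripts in the table. The symbol Fosb was not among the rows, but the transcript NM_001256509, listed under the placeholder symbol LOC100360880, is the Fosb transcript in RefSeq. Its values are given separately and it was not counted among the 9.

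Immediate early genes are transcribed within minutes of a stimulus, from factors already present in the cell and without new protein synthesis. Growth factor, stress, calcium and mechanical signals reach them through MAP kinases, serum response factor with its ternary complex factors, and CREB. In skeletal muscle they are known to respond to contraction, stretch and injury, and their transcripts are short-lived.

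Female Wistar rats were sampled in 5 groups of 2 libraries, and the animals of all 5 groups carried the collagen-induced disease. RA_0 was taken before any therapy. AP_1h and AP_34d were taken 1 hour and 34 days into acupuncture, in which short needles were inserted at points of the lower back and below the knee and twirled, in sessions repeated every other day. PLA_1h and PLA_34d were taken at the same times of the placebo, sterile saline injected weekly into the peritoneum. The interval between the last session and sampling at 34 days is not given in the sources used here. No healthy rats and no untreated rats at 1 hour or 34 days were analysed here, so the time courses had RA_0 as their only reference, and the 4 comparisons with it share those 2 libraries. The tissue was excised at sacrifice under deep anesthesia, so libraries of different times came from different rats. It was frozen, and the paper's methods place it around the stimulated points. The needles of the acupuncture groups thus entered near the sampled tissue, while the saline of the placebo was injected elsewhere. The labels do not say whether the 2 replicates of a group came from separate rats, so p-values measure only the spread between these samples.

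The libraries held 5371687 to 8899521 counted reads, and 1 CPM stood for 4.19 to 10.1 reads. CPM (counts per 1000000 reads) was here scaled by the authors with TMM factors (trimmed mean of M values) of 0.780 to 1.31. A count of 0 allows up to 3 reads, which is 0.297 to 0.716 CPM. Skeletal muscle markers, such as Acta1 and Ckm, were detected in all libraries, with a summed level of 124930 to 332018 CPM over 9 genes. Keratinocyte markers summed to at most 6.40 CPM over the 3 of 4 genes in the table. These are bulk samples, in which fewer cells of a type and less RNA per cell cannot be told apart.

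The promoters of 7 of the 10 genes were in the RefSeq table of build GRCr8, as windows from 250 bases before to 50 bases after the start. Fos, Jun and Atf3 were not among them. The stretches below are shown because they hold the letters through which serum response factor and CREB are known to act on such genes. Capitals mark a CArG box (CC, 6 letters A or T, GG) or TGACG in either orientation, alone or within the full palindrome TGACGTCA.
Egr1, chr18:26736958-26737027, plus strand: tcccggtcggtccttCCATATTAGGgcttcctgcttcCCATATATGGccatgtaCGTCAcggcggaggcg
Egr2, chr20:21054492-21054561, minus strand: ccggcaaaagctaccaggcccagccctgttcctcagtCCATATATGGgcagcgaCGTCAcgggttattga
Ier2, chr19:40399253-40399322, plus strand: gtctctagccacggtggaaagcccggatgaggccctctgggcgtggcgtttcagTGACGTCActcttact
Btg2, chr13:48087851-48087920, minus strand: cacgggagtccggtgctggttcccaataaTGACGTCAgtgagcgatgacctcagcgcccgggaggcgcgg
Nr4a1, chr7:134260018-134260097, plus strand: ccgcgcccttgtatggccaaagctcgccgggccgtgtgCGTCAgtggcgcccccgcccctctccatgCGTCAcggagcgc

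Each motif was searched on both strands of 33469 promoters. A CArG box was found in 1.64% of all promoters and in 2 of the 7, Egr1 and Egr2. Egr1 had CArG boxes starting at -105 and -83 from the start, and Egr2 had its CArG box at -83 as well. The 2 genes shared the same 10 letters at -83 and the same TGACG match, read on the other strand, at -66. TGACGTCA was found in 1.83% of all promoters and in 2 of the 7, at -66 in Ier2 and at -201 in Btg2. The shorter TGACG, which TGACGTCA contains, was found in 21.2% of all promoters and in 6 of the 7, the exception being Fosb. TGANTCA, the site through which FOS and JUN dimers are known to bind, was found in 7.33% of promoters and in 0 of the 7. The EGR site GCGNGGGCG was found in 4.98% of promoters and in Btg2 and Nr4a1, and the NR4A site AAAGGTCA in 1.43% and in 0 of the 7. TATAAA was found in 14.2% of promoters and in Fosb and Junb, and GGGCGG in 33.1% and in Btg2, Egr2 and Nr4a1. These matches describe the letters in the windows only.

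Across the 10 libraries, the immediate early genes differed widely between the 2 replicates of a group. RA_0 replicate 2, taken before therapy, and AP_1h replicate 1 held the high levels of most of the genes. Their partner libraries in the same groups did not. No gene of the 9 passed an adjusted p under 0.05 in any comparison.

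**Figure D1:**
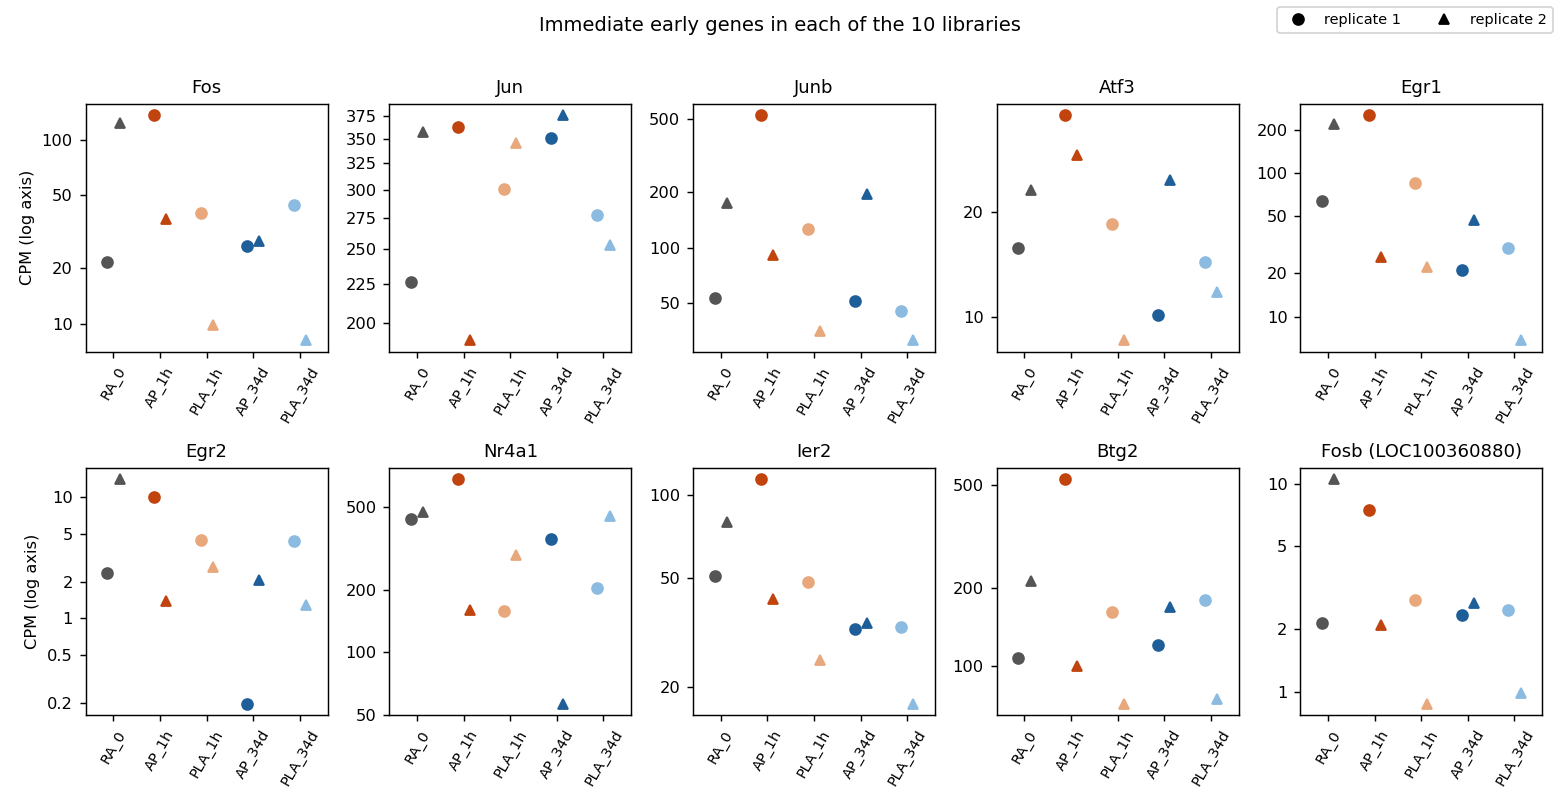
CPM on a log axis in each of the 10 libraries, for the 9 genes and for Fosb (listed as LOC100360880), with a panel and an axis range for each gene. Circles are replicate 1 and triangles replicate 2. AP_1h replicate 1 ranked first or second of 10 for all 9 genes, and RA_0 replicate 2 did so for 6 of 9.

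The AP-1 family came first. Fos encodes the leucine zipper partner of the JUN proteins (NM_022197, rn4 chromosome 6, 109559135 to 109562001, plus strand). Its level was 21.7 and 123 CPM in RA_0, 137 and 37.1 CPM in AP_1h, and 40.0 and 9.83 CPM in PLA_1h. It was 26.6 and 28.4 CPM in AP_34d and 44.4 and 8.10 CPM in PLA_34d. RA_0 replicate 2 and AP_1h replicate 1 stood above the other libraries, and the replicates within RA_0 differed 5.69-fold. The means were 72.6 ± 71.9 CPM (SD, n = 2) in RA_0 and 87.03 ± 70.6 CPM (SD, n = 2) in AP_1h, whose libraries overlapped. Those at 34 days, 27.5 ± 1.29 CPM for AP_34d and 26.3 ± 25.7 CPM for PLA_34d (SD, n = 2 each), also overlapped.

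Jun encodes the AP-1 subunit that can pair with itself or with FOS proteins (NM_021835, chromosome 5, 115358167 to 115361259, minus strand). Its level was 227 and 358 CPM in RA_0, 363 and 189.6 CPM in AP_1h, 300.5 and 346 CPM in PLA_1h, 351 and 376 CPM in AP_34d, and 278 and 253 CPM in PLA_34d. Jun had the narrowest range, 1.98-fold from the lowest to the highest library, and both ends of its AP_1h pair lay near the ends of that range. The AP_34d libraries were both above the PLA_34d libraries.

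Junb encodes a JUN family member with weaker activity that can compete with JUN (NM_021836, chromosome 19, 24831536 to 24833320, plus strand). Its level was 53.7 and 176 CPM in RA_0, 526 and 91.1 CPM in AP_1h, 126 and 35.3 CPM in PLA_1h, 51.4 and 197 CPM in AP_34d, and 45.2 and 31.4 CPM in PLA_34d. AP_1h replicate 1 was far above all others, 5.78-fold above its partner. Both PLA_34d libraries lay below both RA_0 and both AP_34d libraries.

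Atf3 encodes a stress-induced CREB family factor that often represses (NM_012912, chromosome 13, 107191622 to 107223850, minus strand). Its level was 15.7 and 23.0 CPM in RA_0, 37.6 and 29.0 CPM in AP_1h, 18.4 and 8.60 CPM in PLA_1h, 10.2 and 24.6 CPM in AP_34d, and 14.4 and 11.8 CPM in PLA_34d. Atf3 was the member whose AP_1h libraries were both above all 8 others. The share of all transcripts with that pattern is not given. Their mean was 33.3 ± 6.12 CPM against 19.4 ± 5.14 CPM in RA_0 and 13.5 ± 6.96 CPM in PLA_1h (SD, n = 2 each).

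The Fosb transcript, which encodes a FOS relative with a long-lived splice form, was low (NM_001256509, chromosome 1, 78666631 to 78673491, minus strand). Its level was 2.15 and 10.5 CPM in RA_0, 7.46 and 2.099 CPM in AP_1h, 2.78 and 0.877 CPM in PLA_1h, 2.34 and 2.69 CPM in AP_34d, and 2.47 and 0.995 CPM in PLA_34d. These values rest on 5 to 71 reads. RA_0 replicate 2 and AP_1h replicate 1 were again the highest, and its groups overlapped in every comparison. Its smallest adjusted p was 0.914, in PLA_34d against RA_0.

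Among the zinc finger factors, Egr1 encodes the widely induced early growth response protein (NM_012551, chromosome 18, 27343919 to 27346117, plus strand). Its level was 63.5 and 222 CPM in RA_0, 254 and 26.0 CPM in AP_1h, 85.6 and 22.3 CPM in PLA_1h, 21.3 and 47.1 CPM in AP_34d, and 29.95 and 6.82 CPM in PLA_34d. The AP_1h replicates differed 9.75-fold. The lowest RA_0 library was above all 4 libraries at 34 days, with means of 143 ± 112 CPM in RA_0, 34.2 ± 18.2 CPM in AP_34d and 18.4 ± 16.4 CPM in PLA_34d (SD, n = 2 each).

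Egr2 encodes a related factor best known from Schwann cell myelination (NM_053633, chromosome 20, 21883885 to 21888177, minus strand). Its level was 2.39 and 14.3 CPM in RA_0, 10.2 and 1.40 CPM in AP_1h, 4.46 and 2.63 CPM in PLA_1h, 0.195 and 2.09 CPM in AP_34d, and 4.37 and 1.28 CPM in PLA_34d. The value of AP_34d replicate 1 was 1 read, so a ratio of these replicates is not given. RA_0 replicate 2, the highest library for Egr2, was also the highest for the summed Schwann cell markers, at 230 CPM against 29.7 to 131 CPM in the others. AP_1h replicate 1, with Egr2 at 10.2 CPM, had a marker sum of 55.6 CPM, and PLA_1h replicate 1, with Egr2 at 4.46 CPM, had 131 CPM. The part of those cells in the Egr2 level was not tested.

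Nr4a1 encodes the orphan nuclear receptor NUR77, which in muscle is known for its induction by adrenergic signals and its role in glucose use (NM_024388, chromosome 7, 140012807 to 140020589, plus strand). Its level was 438 and 473 CPM in RA_0, 679.5 and 160.2 CPM in AP_1h, 159 and 293 CPM in PLA_1h, 348 and 56.6 CPM in AP_34d, and 205 and 450.2 CPM in PLA_34d. RA_0 was the group with the closest replicates, 1.08-fold apart. In PLA_1h, AP_34d and PLA_34d, the Nr4a1 replicate order was the opposite of that of Fos, Fosb and the EGR genes.

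Ier2 encodes a small nuclear early response protein (NM_001009541, chromosome 19, 25159276 to 25160798, plus strand). Its level was 50.6 and 80.2 CPM in RA_0, 115 and 41.98 CPM in AP_1h, 48.4 and 25.1 CPM in PLA_1h, 32.4 and 34.4 CPM in AP_34d, and 33.2 and 17.3 CPM in PLA_34d. Both RA_0 libraries were above the 6 libraries of PLA_1h, AP_34d and PLA_34d.

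Btg2 encodes an antiproliferative cofactor that promotes mRNA deadenylation (NM_017259, chromosome 13, 47026986 to 47030745, minus strand). Its level was 107 and 213 CPM in RA_0, 528 and 100.05 CPM in AP_1h, 161 and 71.3 CPM in PLA_1h, 120.3 and 169 CPM in AP_34d, and 179.6 and 74.6 CPM in PLA_34d. AP_1h replicate 1 was 5.28-fold above its partner and above every other library. The groups of Btg2 overlapped in all 8 comparisons.

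The spread between replicates was then set against that of all transcripts tested. The SD between the 2 replicates of a group, pooled over the 5 groups on the log2(CPM + 1) scale, had a median of 1.15 over the 9 genes and of 0.394 over all 10259 transcripts. Egr1 had an SD of 1.498, above 99.7% of transcripts, Fos 1.36, above 99.3%, Junb 1.28, above 98.96%, and Egr2 1.16, above 98.1%. Nr4a1 had 1.15, above 97.9%, Btg2 0.993, above 96.4%, and Fosb 0.854, above 93.8%. Ier2 had 0.643, above 84.0%, Atf3 0.543, above 73.8%, and Jun 0.370, above 45.0%. The mean square between groups was less than that within groups for 5 of the 9 genes (Jun, Btg2, Nr4a1, Egr2 and Fos) and for 5482 of the 10259 transcripts, and its ratio had a median of 0.757 over the 9 and 0.921 over all transcripts.

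**Figure D2:**
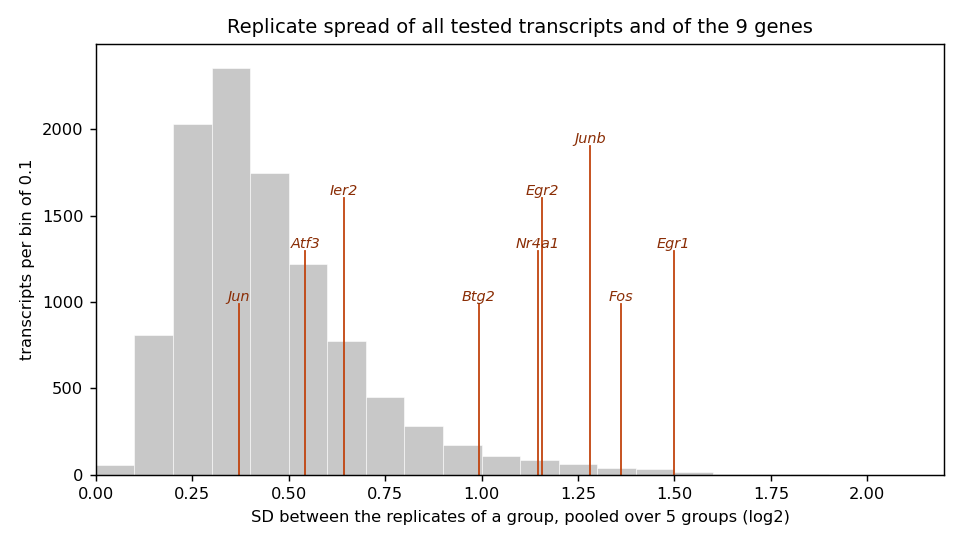
Histogram of the SD between replicates, pooled over the 5 groups (x axis, log2 scale), for the 10259 transcripts tested (y axis, transcripts per bin of 0.1), with a vertical line for each of the 9 genes whose height only separates the names. All but Jun lie to the right of the median of 0.394.

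The differences between replicates ran the same way in most of the genes. In RA_0, replicate 2 was higher for 9 of 9 genes, against 52.1% of all transcripts. In AP_1h, replicate 1 was higher for 9 of 9, against 50.6%. In PLA_1h, replicate 1 was higher for 7 of 9 (52.5% of all), the exceptions being Jun and Nr4a1. In AP_34d, replicate 2 was higher for 8 of 9 (52.9% of all), and in PLA_34d replicate 1 was higher for 8 of 9 (52.9% of all), with Nr4a1 the exception in both. The median absolute difference between AP_1h replicates was 2.08 on the log2 scale for the 9 genes and 0.387 for all transcripts. In the other groups it was 0.988 to 1.13 for the genes and 0.389 to 0.459 for all.

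Each gene's level was also scaled to its own mean and SD over the 10 libraries. The mean scaled level of the 9 genes was 1.59 in AP_1h replicate 1 and 1.05 in RA_0 replicate 2, and in the other 8 libraries it was between -0.951 (PLA_34d replicate 2) and 0.160 (PLA_1h replicate 1). Over the 10 libraries, Pearson's r of a gene with the mean of the other 8 was 0.928 for Egr1, 0.928 for Ier2, 0.909 for Btg2, 0.901 for Fos, 0.864 for Junb, 0.778 for Egr2 and 0.670 for Atf3. It was 0.317 for Jun and 0.151 for Nr4a1. Without RA_0 replicate 2 and AP_1h replicate 1, r was 0.886 for Egr1, 0.759 for Ier2, 0.800 for Btg2, 0.748 for Fos and 0.674 for Junb, but 0.331 for Egr2, 0.353 for Atf3, -0.181 for Jun and -0.772 for Nr4a1. The points share the groups and library preparation, so these values are descriptions.

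**Figure D3:**
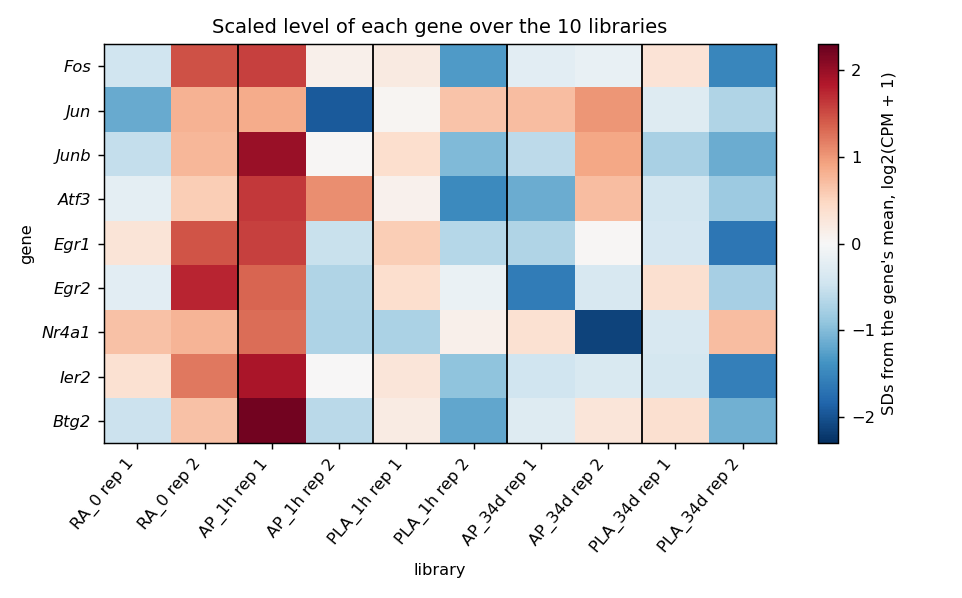
Scaled level (colour, in SDs from each gene's mean of log2(CPM + 1)) of the 9 genes (rows) in the 10 libraries (columns, groups parted by black lines). RA_0 replicate 2 and AP_1h replicate 1 are red for all 9 genes, and Nr4a1 is darkest blue in AP_34d replicate 2, where Jun and Junb are red.

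Cell type markers and depth differed between the same libraries. The summed fibroblast markers (5 genes, such as Col1a1 and Dcn) were 2841 CPM in RA_0 replicate 2 and 2030 CPM in AP_1h replicate 1, against 671 to 2062 CPM in the others. AP_34d replicate 1 had 2062 CPM of them with a mean scaled level of -0.442 for the 9 genes. Skeletal muscle markers summed to 193044 CPM in RA_0 replicate 2 and 136174 CPM in AP_1h replicate 1. The latter sum was above only that of PLA_34d replicate 1, at 124930 CPM. For 3 muscle markers both AP_1h libraries, not replicate 1 alone, lay below all others. These were Myh1 (6070 and 10230 CPM against 21230 to 38430), Myh2 (2938 and 5131 against 6194 to 11884) and Mb (7067 and 7719 against 9271 to 26405). For the other muscle markers the AP_1h libraries overlapped with the rest. The share of all transcripts with that order is not given. Leukocyte markers (7 genes) summed to 111 CPM in RA_0 replicate 2 and 509 CPM in AP_1h replicate 1. The latter sum was below only that of PLA_34d replicate 1, at 849 CPM, and the other libraries had 105 to 234 CPM. Cd74 made up 442 CPM of the sum in AP_1h replicate 1 and 680 CPM of that in PLA_34d replicate 1. Of the 7 genes, 4 passed the filter on low values. AP_1h replicate 1 was the highest library for Cd68 (24.0 CPM) and Itgam (9.95 CPM), and PLA_34d replicate 1 for Lyz2 and Cd74. The defining marker Ptprc was listed at 0 in all libraries, as 5 transcripts with the same start and end, and counting per transcript can drop reads that such transcripts share. PLA_34d replicate 1 stood apart, with the highest leukocyte sum (Cd79b at 72.0 CPM and Cd3e at 36.3 CPM, against at most 1.82 and 4.22 CPM in the others), the lowest skeletal muscle sum and the highest sum of adipocyte markers, such as Adipoq, at 154 CPM against 9.78 to 70.4 CPM. The endothelial markers (3 of 5 genes in the table) were at 139 and 127 CPM in the same 2 libraries, within 88.6 to 179 CPM. The TMM factors of the 2 were 1.10 and 1.18, and Rn45s, the ribosomal precursor RNA, took 0.876% and 0.829% of their reads, within 0.237% to 1.43%. The part of cell makeup or RNA quality in the levels of the 9 genes was not tested.

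Group means were compared with limma on log2(CPM + 1), with p-values adjusted over all 10259 transcripts and a call at an adjusted p under 0.05. With 2 libraries a group, the SE of a difference ran from 0.39 for Jun to 1.08 for Egr1 on the log2 scale. The 95% interval around a change therefore reached 1.81-fold either way for Jun, 2.05-fold for Atf3, 4.598-fold for Fos and 5.30-fold for Egr1. A p that misses the threshold thus does not show that a level stayed the same.

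One hour after acupuncture, the comparison with RA_0 asked for the early response to the needle. The median change of the 9 genes was 0.12 on the log2 scale, and 0.002 over all transcripts, with 5 genes above 0 and 4 below. That median was -0.59 without AP_1h replicate 1 and 0.95 without AP_1h replicate 2. None was called, where 0.0292% of all transcripts were (3 of 10259), and 0 had an unadjusted p under 0.05, where 8.89% did. Atf3 was higher without overlap, as were 20.6% of all transcripts, and no gene was lower without overlap, as 21% were. The Atf3 change was 0.76 ± 0.47 (log2, SE), adjusted p = 0.692, and 0.50 to 1.02 with either RA_0 library left out.

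One hour after the placebo, 8 of 9 genes had lower means than in RA_0, with a median change of -0.69, which was -0.11 without RA_0 replicate 2. Calls were absent (0% of all transcripts), as were unadjusted p-values under 0.05 (2.59% of all). Ier2 and Nr4a1 were lower without overlap, as were 13.6% of all transcripts, and 0 were higher, as 15.8% were. The changes were -0.85 ± 0.52 for Ier2 and -1.07 ± 0.85 for Nr4a1 (log2, SE), both with an adjusted p of 1.000. With a PLA_1h library left out they ran from -1.31 to -0.39 for Ier2 and from -1.51 to -0.63 for Nr4a1.

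Acupuncture set against placebo at 1 hour gave higher means for 8 of 9 genes, the exception being Jun, with a median change of 0.97. Without AP_1h replicate 1 the median was -0.10, with 4 of 9 above 0. No gene was called (0% of all transcripts). Atf3 alone had an unadjusted p under 0.05, as did 4.04% of all transcripts, and was alone in being higher without overlap, as were 13.9%, while 0 genes were lower (16.7% of all). Its difference was 1.32 ± 0.47 (log2, SE) with an adjusted p of 0.932, and 0.81 without PLA_1h replicate 2. The Fos libraries of the 2 groups overlapped, since AP_1h replicate 2 at 37.1 CPM lay under PLA_1h replicate 1 at 40.0 CPM.

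After 34 days of acupuncture, 7 of 9 genes had lower means than in RA_0, with a median change of -0.90. Without RA_0 replicate 2 the median was 0.01, with 5 of 9 above 0. None was called (0% of all transcripts), and none had an unadjusted p under 0.05 (4.77% of all). Ier2, Egr1, Nr4a1 and Egr2 were lower without overlap, where 15.9% of all transcripts were, and 0 genes were higher, where 16.4% were. The changes were -1.90 ± 0.87 for Egr2, -1.68 ± 0.85 for Nr4a1 and -0.91 ± 0.52 for Ier2 (log2, SE), each with an adjusted p of 0.967, where Egr2 rests on 1 read in AP_34d replicate 1. The Nr4a1 change was -0.39 without AP_34d replicate 2 and -2.98 without replicate 1. Without RA_0 replicate 2 it was -0.82 for Egr2 and -0.59 for Ier2. Without TMM factors, 2 genes in place of 4 were lower without overlap, but the share of all transcripts under that scaling is not given.

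In PLA_34d all 9 genes had lower means than in RA_0, with a median change of -1.04 against -0.01 over all transcripts. The median was -0.26 without RA_0 replicate 2, with 6 of 9 below 0, and -1.60 without PLA_34d replicate 1, the library rich in leukocyte and adipocyte markers, whose part was not tested. Not one was called (0% of all). Without PLA_34d replicate 2, transcripts were called here, in the other comparisons with PLA_34d and in the interaction, none of them a member. That group was then replicate 1 alone, so such calls rest on that library. The shares of 0% in these comparisons rest on both PLA_34d libraries. Egr1 and Ier2 had an unadjusted p under 0.05, as did 3.2% of all transcripts. Lower without overlap were Ier2, Egr1, Atf3 and Junb (14.2% of all transcripts), and 0 genes were higher (16.8% of all). Egr1 was at -2.94 ± 1.08, Ier2 at -1.37 ± 0.52 and Junb at -1.35 ± 0.94 (log2, SE), each with an adjusted p of 0.914. The changes were -1.95 for Egr1 and -0.92 for Ier2 without PLA_34d replicate 2, and -0.50 for Junb without RA_0 replicate 2. Without TMM factors, which moved the median of all transcripts to 0.23, 1 gene in place of 4 was lower without overlap. The share of all transcripts under that scaling is not given, so this count has no background. The RA_0 means in both comparisons at 34 days include the high replicate 2.

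Between the arms at 34 days, 7 of 9 means were higher in AP_34d, with Nr4a1 and Egr2 lower, and the median change was 0.45, or 0.007 without PLA_34d replicate 2. There were no calls (0% of all transcripts), and 0 had an unadjusted p under 0.05 (5.47% of all). Jun and Junb were higher without overlap, as were 16% of transcripts, and 0 were lower, as 15% were. The changes were 0.45 ± 0.39 for Jun, adjusted p = 0.918, and 1.40 ± 0.94 for Junb, adjusted p = 0.889 (log2, SE). Junb was at 0.44 without AP_34d replicate 2 and at 2.36 without replicate 1. Without TMM factors no gene was higher without overlap, but the share of all transcripts under that scaling is not given.

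Within the acupuncture arm, 8 of 9 means were lower at 34 days than at 1 hour, the exception being Jun, with a median change of -1.11, or -0.19 without AP_1h replicate 1. The test called no gene (0% of all transcripts), and 0 had an unadjusted p under 0.05 (5.35% of all). Ier2, Atf3 and Fos were lower without overlap, against 16% of all transcripts, and 0 were higher, against 17.1%. Atf3 was at -1.01 ± 0.47 (adjusted p = 0.937), Ier2 at -1.04 ± 0.52 (adjusted p = 0.940) and Fos at -1.35 ± 0.99 (adjusted p = 0.954), on the log2 scale with SE. Without AP_1h replicate 1, Ier2 was at -0.32 and Fos at -0.42, and without AP_1h replicate 2 at -1.75 and -2.28. Atf3 was at -0.41 without AP_34d replicate 1. The 2 AP_34d libraries of Fos, at 26.6 and 28.4 CPM, were nearly level.

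Within the placebo arm, 6 of 9 means were lower at 34 days than at 1 hour, with a median change of -0.28, or 0.05 without PLA_1h replicate 1. None was called (0% of all transcripts), and 0 had an unadjusted p under 0.05 (2.96% of all). Jun was lower without overlap, as were 14.4% of all transcripts, and 0 were higher, as 12.7% were. The Jun change was -0.28 ± 0.39 (log2, SE), adjusted p = 0.999. Without TMM factors no gene was lower and 1 was higher without overlap, but the shares of all transcripts under that scaling are not given. The change of the acupuncture to placebo difference from 1 hour to 34 days, tested as an interaction, had a median of -0.80 over the 9 genes, or 0.20 without AP_1h replicate 1. It gave no call (0% of all transcripts) and no unadjusted p under 0.05 (4.05% of all).

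**Figure D4:**
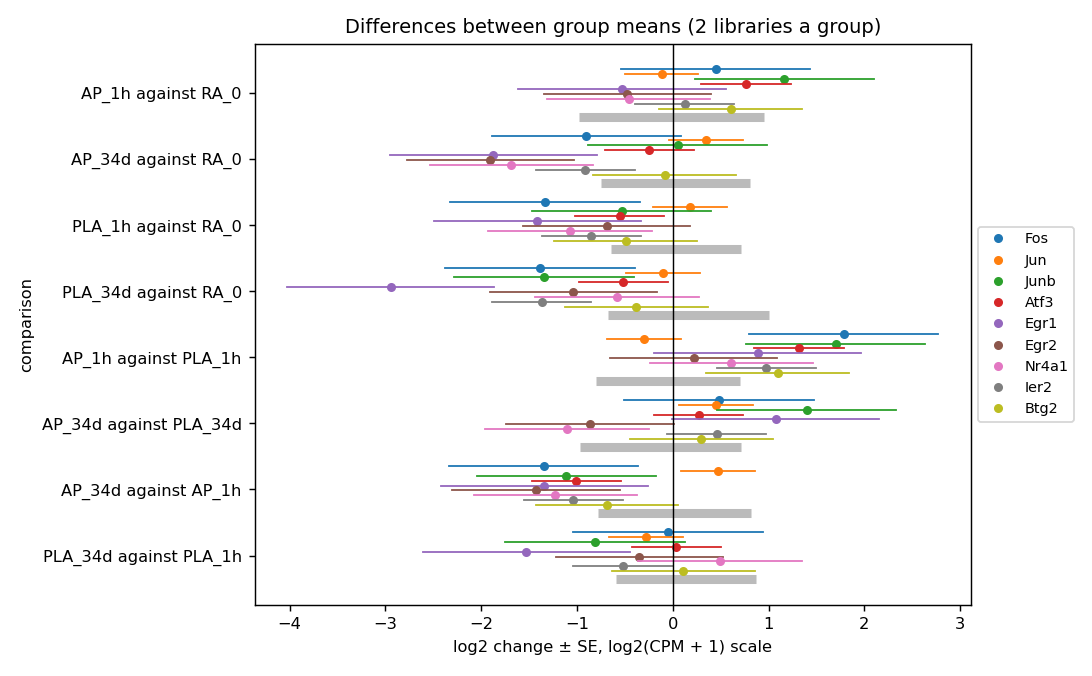
Difference between group means (x axis, log2 scale, point ± SE, 2 libraries a group) for the 9 genes in each of 8 comparisons, with a grey bar from the 5th to the 95th percentile of all 10259 transcripts. In PLA_34d against RA_0 all 9 points are at or below -0.10, and Egr1 is the lowest at -2.94.

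The other genes of the early response were taken from a list of 67, of which 55 passed the filter on low values. It held other AP-1 and ATF genes (7 tested), other EGR and NR4A genes (4 tested), further early response genes (27 tested), the feedback phosphatases of MAP kinases (6 tested) and upstream factors (11 tested). None was called in any comparison. In AP_1h against RA_0, 8 were higher and 4 lower at an unadjusted p under 0.05, where 8.89% of all transcripts passed that p, and the median change was 0.19. In AP_1h against PLA_1h these counts were 3 and 1 (4.04% of all transcripts passed that p), with a median of 0.30. In the 34-day arm comparison they were 4 and 1 (5.47% of all), and in AP_34d against RA_0 they were 3 and 3 (4.77% of all). The other comparisons gave 0 to 1 higher and 0 to 2 lower, where 2.59% to 5.35% of all transcripts passed.

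Nr4a3, the NR4A receptor NOR-1, came closest to a call. Its level was 0.954 and 1.19 CPM in RA_0, 15.2 and 10.2 CPM in AP_1h, 3.17 and 1.40 CPM in PLA_1h, 2.15 and 3.14 CPM in AP_34d, and 3.03 and 1.14 CPM in PLA_34d. Both AP_1h libraries stood above the other 8, unlike for Nr4a1 and Nr4a2. In AP_1h, 20.6% of all transcripts were higher without overlap against RA_0 and 13.9% against PLA_1h. The share above all 8 other libraries is not given. The change from RA_0 to AP_1h was 2.71 ± 0.45 (log2, SE), adjusted p = 0.0934. The RA_0 values lay near the floor of 3 reads, which is 0.716 CPM in replicate 1 and 0.446 CPM in replicate 2. DESeq2 on the recovered reads gave an adjusted p of 0.000612, and limma on the libraries of AP_1h and RA_0 alone gave 0.00744. Those 2 settings called 166 and 108 of the 10259 transcripts in this comparison, where the main test called 3. Over the 22 alternatives run on this gene the adjusted p ran up to 0.564, without AP_1h replicate 1. Against PLA_1h the change was 2.09 ± 0.45 with an adjusted p of 0.481, AP_34d stood at -1.90 ± 0.45 against AP_1h with 0.584, and the interaction was at -1.79 ± 0.63 with 1.000. The table held 2 transcripts of Nr4a3, and these values are those of the one tested.

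**Figure D5:**
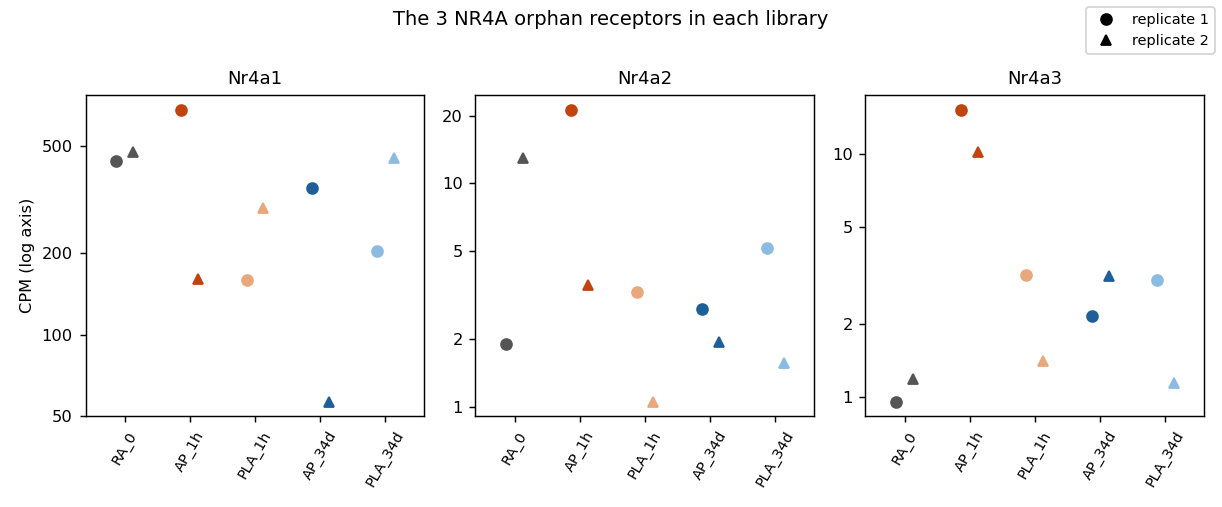
CPM on a log axis in each of the 10 libraries for the 3 NR4A receptor genes, with an axis range for each panel, circles for replicate 1 and triangles for replicate 2. For Nr4a3 both AP_1h libraries, at 15.2 and 10.2 CPM, lie above the others, while for Nr4a1 and Nr4a2 AP_1h replicate 2 lies among them.

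Among the other genes named by their p-values, none reached an adjusted p under 0.05. In AP_1h against RA_0, Crem, which encodes cAMP-responsive modulators, was at 0.91 ± 0.32 (adjusted p = 0.428). Mcl1, a short-lived survival factor of the BCL2 family, was at 1.09 ± 0.29 in AP_34d against RA_0 (adjusted p = 0.801) and at 0.88 ± 0.29 against PLA_34d (adjusted p = 0.846). Its CPM were 237 and 324 in AP_34d and 218 and 204 in AP_1h, and 120 to 173 in RA_0, PLA_1h and PLA_34d. Arc, a capsid-like regulator of receptor trafficking best known from neurons, was at -2.51 ± 0.78 in AP_34d and at -2.09 ± 0.78 in PLA_1h against RA_0, where it had 16.7 and 33.6 CPM (adjusted p = 0.931 and 1.000). Csrnp1, a nuclear protein, was at 1.70 ± 0.63 in AP_1h against PLA_1h (adjusted p = 1.000). The Csrnp1 change was 1.02 without AP_1h replicate 1, and that of Arc in AP_34d was -1.62 without AP_34d replicate 2.

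Of the MAP kinase phosphatases, Dusp1 was at -1.40 ± 0.59 in AP_34d against AP_1h (adjusted p = 0.906) and Dusp6 at -1.25 ± 0.40 in AP_34d against PLA_34d (adjusted p = 0.846). The Dusp1 change was -0.55 without AP_1h replicate 1. Dusp2 was at 1.79 ± 0.79 in PLA_34d against RA_0 (adjusted p = 0.914) and at 1.47 ± 0.79 against PLA_1h (adjusted p = 0.999). Its level was 12.2 and 1.28 CPM in PLA_34d, 1.19 and 0.149 CPM in RA_0, and 1.09 and 0.877 CPM in PLA_1h. The RA_0 replicate 2 value lay under the floor of 3 reads, 0.446 CPM there. Without PLA_34d replicate 1, the library rich in leukocyte and adipocyte markers, the 2 changes were 0.52 and 0.20. Dusp1 was highest in the same 2 libraries as Egr1, with 490.4 CPM in RA_0 replicate 2 and 621 CPM in AP_1h replicate 1, against 94.0 to 225 CPM in the others. Trib1, a pseudokinase, was at -1.03 ± 0.38 in PLA_1h against RA_0 (adjusted p = 1.000) and at 0.79 ± 0.38 in PLA_34d against PLA_1h (adjusted p = 0.999). Without PLA_34d replicate 1 the latter change was 0.35. The kinase gene Map2k2 was at -0.74 ± 0.34 in PLA_34d against RA_0 (adjusted p = 0.914), and the ternary complex factor gene Elk1 at 0.94 ± 0.54 in the interaction (adjusted p = 1.000). Map2k2 was at -0.34 without RA_0 replicate 1, and Elk1 at 0.45 without PLA_1h replicate 2.

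The order of the replicates was also counted in the other genes. Of the 27 further early response genes tested, 27 were higher in AP_1h replicate 1 than in replicate 2, as were 50.6% of all transcripts. In RA_0, 25 of them were higher in replicate 2 than in replicate 1, as were 52.1% of all. The library that was higher for most of the 9 genes was higher for 21 of these 27 in PLA_1h, 19 in PLA_34d and 13 in AP_34d. Of all transcripts, 52.5% were higher in that library in PLA_1h, 52.9% in PLA_34d and 52.9% in AP_34d. Of the 7 other AP-1 and ATF genes, the counts were 5 in RA_0 and 4 in each other group. Of the 11 upstream factors, which are largely controlled after translation, 4 were higher in AP_1h replicate 1 and 5 in RA_0 replicate 2. The same shares of all transcripts apply to the AP-1 and ATF genes and to the upstream factors.

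The transcripts most like the 9 genes were ranked by Pearson's r with their mean scaled level over the 10 libraries, among the other 10250 transcripts tested. The Fosb transcript ranked first, with r = 0.937, Spearman's rho = 0.939, and r = 0.887 without RA_0 replicate 2 and AP_1h replicate 1. Nr4a2, the NR4A receptor NURR1, followed with r = 0.921, at 1.91 and 12.9 CPM in RA_0, 21.4 and 3.50 CPM in AP_1h and 1.05 to 5.16 CPM elsewhere. Next were Bmp4, a secreted growth factor (0.893), Apold1, an endothelial early response gene (0.891), and Klf4, a zinc finger factor (0.888). Without the 2 libraries, r was 0.523 for Nr4a2, 0.611 for Bmp4, 0.504 for Apold1 and 0.526 for Klf4. The most opposite transcripts were Hrc, a calcium-binding protein of the sarcoplasmic reticulum (-0.882, at 869 CPM in AP_1h replicate 1 and 1213 to 1919 CPM in the others), and Rab21, a small GTPase of endosomes (-0.870). Nr4a2 and Klf4 were also on the list of 67.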

How the data were processed

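Polyadenylated RNA from sub-epidermal muscle was sequenced on an Illumina HiSeq instrument. As the labels and the paper's methods state, base calls (CASAVA 1.8.2) were trimmed with cutadapt 1.2.1, aligned to rn4 with Bowtie2 2.1.0 and counted per transcript with HTSeq 0.5.4p3; use of strand was not stated, and none of the 9 transcripts overlapped another. The authors deposited a signal, CPM scaled with TMM factors (edgeR 3.4.2). Whole reads were recovered for 100% of values within 0.01. All value columns were matched to samples.

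The test took transcripts that reached 1 CPM in both replicates of any group and used limma 3.58.1 (R 4.3.3) on log2(CPM + 1), a scale that understates changes of low genes, with 1 mean per group over 10 libraries and Benjamini-Hochberg adjustment (5 residual and 5.14 prior degrees of freedom). The test was tried on simulated data. Members and gene lists were chosen with earlier results of these data known. Fitted changes are given for up to 3 members per comparison with the smallest p among those without overlap, for up to 2 listed pathway genes per comparison with the smallest p, and likeness for the 5 highest and 2 lowest correlations. Alternatives were limma-voom, edgeR 4.0.16 and DESeq2 1.42.0 on recovered reads, other pseudocounts, filters, scalings and sample sets, a replicate block, and leaving out each library. Sequences are from RefSeq (GRCr8), where 7 genes matched by symbol. Intervals rest on the spread between libraries, and floors of reads cover counting error only.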

Additional observations from a re-analysis of the deposited data

How the results depend on the processing

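No immediate early gene of the 9 was called under any of 206 alternative fits over the 9 comparisons, in which the smallest adjusted p was 0.321, for AP_34d against RA_0 without AP_34d replicate 1. The 16 named changes kept their direction in all 367 values under alternatives. They were chosen among genes without overlap between the compared groups. Leaving out a library therefore could not reverse them, and several other settings left the estimate unchanged. No member was called with any library left out. Without PLA_34d replicate 2 other transcripts were called, and that group was then replicate 1 alone. Leaving out 1 library moved 14 of the 16 named member changes and 8 of the 18 named pathway changes by over 1.5 times. It reversed none, which for the member changes follows from how they were chosen. The median change of the 9 genes (an alternative chosen after seeing the data) ran from -0.59 to 0.95 in AP_1h against RA_0, -1.24 to 0.015 in AP_34d against RA_0, -1.18 to -0.11 in PLA_1h against RA_0, -1.70 to -0.26 in PLA_34d against RA_0, -0.10 to 1.69 in AP_1h against PLA_1h, 0.007 to 0.91 in AP_34d against PLA_34d, -2.26 to -0.19 in AP_34d against AP_1h, -0.97 to 0.050 in PLA_34d against PLA_1h and -1.56 to 0.20 in the interaction. Same-numbered deviations of the replicates correlated between -0.464 and 0.446 over 10 pairs of groups, over 0.1 in 4. Since tissue was excised at sacrifice, same-numbered libraries of different times cannot come from the same rat. With 2 libraries a group these values cannot settle whether replicate numbers pair the samples in another way. With the replicate block 0 members were called. DESeq2 called 10 to 166 transcripts per comparison where limma called 0 to 3, and edgeR and limma-voom 0, none of them a member. The median SD between replicates was 0.974 to 1.26. Without TMM factors (an alternative chosen after seeing the data, as were the other scalings for this count), the genes lower without overlap were 2 in AP_34d against RA_0, 1 in PLA_1h against RA_0, 1 in PLA_34d against RA_0 and 0 in PLA_34d against PLA_1h, and those higher were 0 in AP_34d against PLA_34d and 1 in PLA_34d against PLA_1h, where quantile normalization also gave 1. The median of all transcripts then moved by 0.05 to 0.29 on the log2 scale, and the order of the replicates held for 7 to 9 genes in every group under the 3 scalings. The shares of all transcripts without overlap under these scalings are not given, so these counts have no background. Adding Fosb changed no count of calls.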
